A study of Mus musculus with 4 samples.

Results

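Translation initiation factors are the proteins that place a ribosome at the start codon of an mRNA. Their genes carry symbols beginning with Eif, and they were described here in back skin of K5-IKKbeta transgenic and wild type mice. Members were all probe sets whose only gene symbol in the annotation of the array platform began with Eif, leaving out the Eif2ak kinases, and each gene was represented by its brightest probe set by the mean of the 4 arrays. This gave 43 genes among 18194 and 120 probe sets among 45101. Brightness over all arrays chose the probe sets and did not use the genotype. Eif1, Eif2s1, Eif3g and Eif4g1 were not analysed here.

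Initiation proceeds in steps that the factor names follow. The factor eIF2, bound to GTP, carries the initiator tRNA to the small ribosomal subunit, where eIF1, eIF1A, eIF3 and eIF5 help to scan for the start codon. The exchange factor eIF2B returns eIF2 to its GTP-bound form, and this step slows when stress kinases phosphorylate eIF2. The proteins of the eIF4 group bind and unwind the cap end of the mRNA, and eIF5B joins the large subunit. In skin, keratinocytes of the growing hair bulb and the epidermis make large amounts of keratin and other structural proteins.

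Total RNA of whole back skin was measured on 4 arrays, 2 of wild type and 2 of K5-IKKbeta skin. The transgene places the gene of IKKbeta, a kinase that activates NF-kB, under keratin K5 regulatory elements, which are active in basal keratinocytes, while the RNA came from all layers of the skin. All mice were 32-day-old males of a C57BL6 X DBA2 background, and each array held RNA pooled from 3 mice. The spread between arrays is thus a spread between pools, and their number limits the precision. Of 5 probe sets of Ikbkb, the gene of IKKbeta, 3 were higher in K5-IKKbeta skin and none lower, and where each lies relative to the transgene was not analysed here. Over all probe sets, as a description, arrays of a genotype correlated at 0.996 (wild type) and 0.994 (K5-IKKbeta) by Pearson's r, and arrays of different genotype at 0.965 to 0.969.

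Values are log2 expression on the RMA scale, and a log2 fold change is the K5-IKKbeta mean minus the wild type mean. The test was limma, its p-values were adjusted by Benjamini-Hochberg over 13074 tested genes, and the threshold was 0.05. Of the 43 initiation factor genes 42 passed the filter on dim probe sets, which does not look at genotype; Eif4a3, a helicase of the exon junction complex, was dimmer, with 6.26 and 6.24 in the wild type pools and 6.36 and 6.11 in the K5-IKKbeta pools.

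Initiation factor genes were more often lower than higher in K5-IKKbeta skin. Of 42 tested members 13 fell (31.0%) and 3 rose (7.14%), beside 10.6% lower and 23.4% higher among all tested genes. With another quantile normalization 15 members fell and 3 rose, beside 1780 lower and 2580 higher genes of 13070. In all, 38.1% of members changed, against 33.9% of all tested genes, a share near the background. The median log2 fold change of the members was -0.15, against 0.09 over all tested genes, and 28 members had a negative value, as had 5099 of the 13074 genes. Without wild type 2 the members' median was -0.09, against 0.11 over all tested genes. After a quantile normalization that left hair genes out, a setting chosen after seeing the data, it was -0.26, against 0.01. The arrays of the genotypes did not overlap for 71.4% of members and for 69.5% of all tested genes.

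By factor, all 5 tested Eif2b genes fell, as did 2 of 5 Eif2, 2 of 11 Eif3, 2 of 4 Eif5, 1 of 12 Eif4 and 1 of 4 Eif1 genes. The rises were in Eif1b, Eif4a2 and Eif4e3. Of the changed members 2 changed at least 2-fold, Eif2b3 and Eif2b4, and 6 at least 1.5-fold. Without wild type 1 or without wild type 2, calls outside Eif2b were lost, and calls were fewer among all tested genes too. The log2 fold changes of the Eif2b genes then ran from -1.41 to -0.58 and from -1.17 to -0.60.

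**Figure D1:**
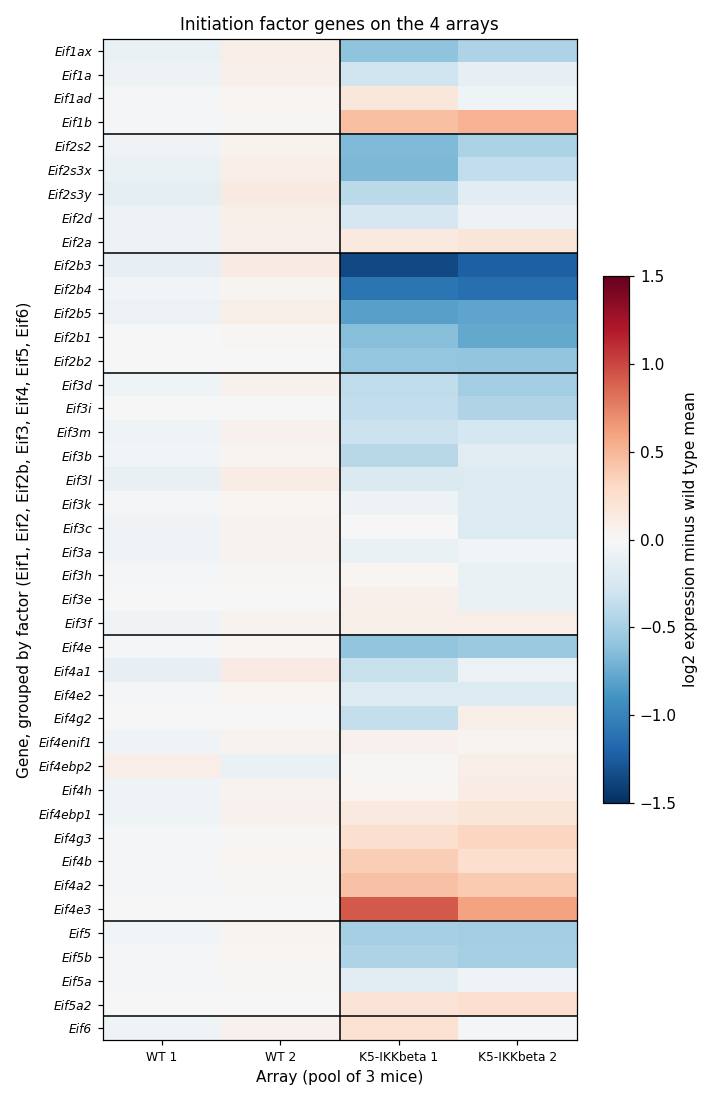
Log2 expression of the 42 tested initiation factor genes on each of the 4 arrays, as the difference from the wild type mean of the gene (colour). Rows are genes grouped by factor and columns are arrays. The 5 Eif2b genes are blue on both K5-IKKbeta arrays, with log2 fold changes of -1.29 to -0.59, and Eif2b3 and Eif2b4 are the darkest rows.

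Markers of other tissues in the same RNA moved as well, and their counts stand beside 23.4% higher and 10.6% lower among all tested genes. All 12 hair shaft and hair matrix markers fell, and their summed log2 level went from 16.67 and 16.70 in wild type to 12.02 and 12.54 in K5-IKKbeta skin. Of 8 skeletal muscle markers 7 rose (summed level 15.49 to 15.51 in wild type, 16.27 to 16.41 in K5-IKKbeta), and 8 of 8 macrophage markers rose (12.13 to 12.23, then 13.49 to 13.55). Of 10 epidermal markers 5 rose and 3 fell (16.04 to 16.05, then 16.34 to 16.57), and all 10 were above the filter. Of 11 tested proliferation genes 1 rose and none fell (13.89 to 14.10, then 14.11 to 14.36). Of the tested markers 3 of 6 for fibroblasts, 3 of 5 for adipocytes, 3 of 5 for T and NK cells and 0 of 1 for B and plasma cells rose, and none of these fell. The part of these tissues in the values of the initiation factors was not tested, and in bulk skin fewer cells of a type and less RNA per cell cannot be told apart.

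The factor eIF2B is a complex of 5 kinds of subunit, and its genes fell together. Subunits alpha, beta and delta, encoded by Eif2b1, Eif2b2 and Eif2b4, form the part that senses phosphorylated eIF2, and subunits gamma and epsilon, encoded by Eif2b3 and Eif2b5, form the catalytic part. The 250 bases before the transcription start of the Eif2b genes are shown because these genes moved together; RefSeq's GRCm38.p6 promoter table held 4 of the 5, and all 4 are printed. Capitals mark the CCAAT box, read as CCAAT or as ATTGG on the other strand, and the sequences run 5′ to 3′ in the direction of the gene.
Eif2b1 (chr5:124579132-124579381, minus strand): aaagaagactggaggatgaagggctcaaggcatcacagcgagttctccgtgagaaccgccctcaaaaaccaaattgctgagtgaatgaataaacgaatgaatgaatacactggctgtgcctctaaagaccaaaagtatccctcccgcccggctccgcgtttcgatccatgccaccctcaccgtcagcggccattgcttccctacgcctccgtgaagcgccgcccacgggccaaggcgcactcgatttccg
Eif2b2 (chr12:85219231-85219480, plus strand): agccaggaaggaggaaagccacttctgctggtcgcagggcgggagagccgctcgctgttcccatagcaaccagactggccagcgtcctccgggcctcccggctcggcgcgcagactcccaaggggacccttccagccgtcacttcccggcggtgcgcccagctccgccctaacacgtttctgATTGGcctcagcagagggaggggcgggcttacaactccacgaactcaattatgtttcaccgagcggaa
Eif2b4 (chr5:31193140-31193389, minus strand): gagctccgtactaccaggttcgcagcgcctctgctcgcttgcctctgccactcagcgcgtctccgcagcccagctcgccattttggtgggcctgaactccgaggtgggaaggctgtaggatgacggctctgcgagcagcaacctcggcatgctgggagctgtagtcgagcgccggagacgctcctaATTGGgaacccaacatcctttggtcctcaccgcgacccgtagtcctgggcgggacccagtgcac
Eif2b5 (chr16:20498567-20498816, plus strand): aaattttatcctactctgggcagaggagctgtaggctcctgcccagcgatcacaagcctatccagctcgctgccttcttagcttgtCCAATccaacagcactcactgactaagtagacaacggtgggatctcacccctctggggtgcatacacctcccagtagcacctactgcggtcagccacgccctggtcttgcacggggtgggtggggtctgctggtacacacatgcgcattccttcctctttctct
The windows of Eif2b2, Eif2b4 and Eif2b5 held 1 CCAAT box each, whose first base lay 68, 64 and 164 bases before the start. That of Eif2b1 held none. In windows of 300 bases around the start, the CCAAT box was in 37.4% of all 32851 and in 26.1% of those of members. By gene it was in 35.3% of members, some of which had several windows. Whether the Eif2b genes differ from these shares was not tested. The motifs searched were chosen with results of these data known.

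Eif2b3 measured 9.97 and 10.21 in the wild type pools and 8.73 and 8.86 in the K5-IKKbeta pools. This was the largest change of any member, a 2.45-fold fall (log2 fold change -1.29, SE 0.12, adjusted p = 0.00076). Eif2b4 measured 11.01 and 11.10 in the wild type pools and 9.96 and 9.92 in the K5-IKKbeta pools, a 2.16-fold fall (-1.11, SE 0.09, adjusted p = 0.00054). For both genes the gap between the genotypes was several times the difference between pools of a genotype.

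Eif2b5, the subunit that carries the exchange activity, measured 10.50 and 10.67 in the wild type pools and 9.77 and 9.79 in the K5-IKKbeta pools (-0.80, SE 0.10, adjusted p = 0.0024). Eif2b1 measured 10.50 and 10.52, then 9.87 and 9.75 (-0.70, SE 0.10, adjusted p = 0.0030). Eif2b2 measured 10.96 and 10.94, then 10.37 and 10.35 (-0.59, SE 0.09, adjusted p = 0.0047). No Eif2b gene had a K5-IKKbeta pool within the range of the wild type pools. The pools of the genotypes did not overlap for 69.5% of all tested genes either. The 5 calls held without each of the 4 arrays in turn, with adjusted p up to 0.046 for Eif2b2 without wild type 1, and without moderation across genes only that of Eif2b2 did (adjusted p = 0.048, against 0.064 to 0.089 for the other Eif2b genes).

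Other probe sets of the Eif2b genes can be set beside these. Eif2b2 had 2 more, 1434538_x_at with a log2 fold change of -0.47 and 1437428_x_at with -0.44, the first past the threshold over all probe sets (adjusted p = 0.046) and the second not (adjusted p = 0.094). The second probe set of Eif2b5, 1445908_at, had a mean of 5.46 and lay below the filter, with a value of -0.01. Eif2b1, Eif2b3 and Eif2b4 had 1 probe set each, so their values rest on it alone.

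**Figure D2:**
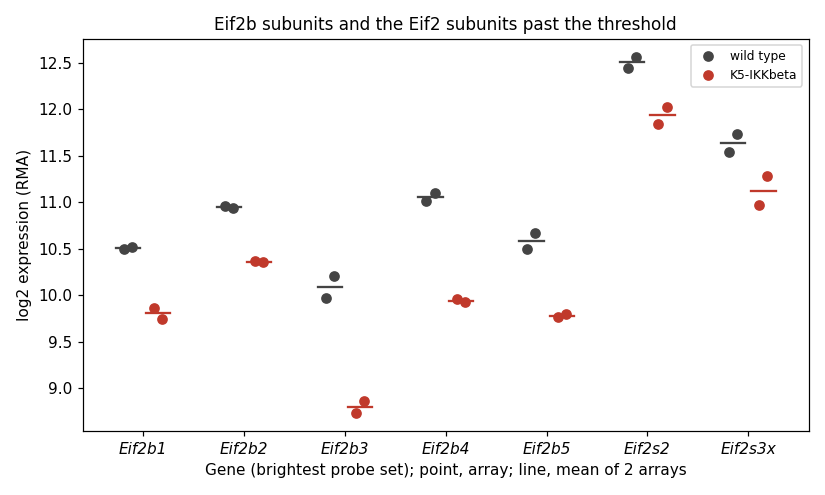
Log2 expression (vertical axis) of the 5 Eif2b genes and of Eif2s2 and Eif2s3x, the Eif2 genes past the threshold. Points are arrays and lines are means of 2 arrays. For each gene both K5-IKKbeta points lie below both wild type points, and the widest gap is that of Eif2b3, from a mean of 10.09 to 8.80. Arrays did not overlap, in either direction, for 69.5% of all tested genes.

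The substrate of eIF2B, the trimer eIF2, was lower in part. Eif2s2, its beta subunit, measured 12.45 and 12.56 in the wild type pools and 11.84 and 12.03 in the K5-IKKbeta pools, a fall of 1.49-fold (-0.57, SE 0.11, adjusted p = 0.011). Eif2s3x, the X-linked gene of the GTP-binding gamma subunit, measured 11.54 and 11.74, then 10.97 and 11.28 (-0.52, SE 0.14, adjusted p = 0.033). The K5-IKKbeta pools differed by more for Eif2s3x than for most members, although neither reached the wild type range. Its Y-linked copy Eif2s3y measured 9.63 and 9.90, then 9.36 and 9.60, and did not pass (-0.29, adjusted p = 0.17).

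With wild type 1 left out neither Eif2 call held (Eif2s2 at -0.63 with adjusted p = 0.052, Eif2s3x at -0.61 with adjusted p = 0.080). The same was true with wild type 2 left out (Eif2s2 at -0.51 with adjusted p = 0.087, Eif2s3x at -0.42 with adjusted p = 0.18). That of Eif2s3x was also lost without K5-IKKbeta 1 (-0.36, adjusted p = 0.071). Over all alternatives adjusted p ran from 0.0035 to 0.13 for Eif2s2 and from 0.0055 to 0.23 for Eif2s3x. Of 6 probe sets of Eif2s2 all had negative values, -0.67 to -0.19, and 4 passed over all probe sets. Eif2a and Eif2d, which can deliver tRNA without eIF2, had values of 0.16 (adjusted p = 0.27) and -0.17 (adjusted p = 0.32). Another probe set of Eif2a, 1434452_x_at, had a value of -0.43 (adjusted p = 0.38 over all probe sets).

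Both eIF1 and eIF1A are small proteins that hold the ribosome open for scanning. Of the 4 tested genes named for them Eif1ax fell, Eif1b rose, and Eif1a and Eif1ad did not pass. Eif1ax, the X-linked gene of eIF1A, measured 11.48 and 11.67 in the wild type pools and 10.97 and 11.11 in the K5-IKKbeta pools (-0.53, SE 0.11, adjusted p = 0.015). Eif1b, a close relative of the eIF1 gene, measured 8.92 and 8.96, then 9.39 and 9.47, a 1.40-fold rise (0.49, SE 0.09, adjusted p = 0.010). For neither gene did the pools of the genotypes overlap, which was so for 69.5% of all tested genes.

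Without wild type 2 neither call held (Eif1ax -0.44, adjusted p = 0.11; Eif1b 0.51, adjusted p = 0.070), and Eif1b was not called without wild type 1 (0.47, adjusted p = 0.085). Over the alternatives adjusted p ran from 0.0051 to 0.15 for Eif1ax and from 0.0060 to 0.12 for Eif1b. The fall of Eif1ax rests on its brightest probe set: 1449576_at and 1437071_at had values of -0.17 and -0.01, and the mean of all 3 did not pass (-0.24, adjusted p = 0.13). Eif1a measured 9.80 and 9.94, then 9.57 and 9.75 (-0.21, adjusted p = 0.21). Eif1ad, named for an eIF1A domain, had a value of 0.06 (adjusted p = 0.75). The second probe sets of Eif1a and Eif1ad, 1424344_s_at and 1428542_at, had values of 0.08 and -0.31 and were not called.

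The large scaffold eIF3, which holds the small subunit, eIF4G and eIF5 together, was called in few subunits. Of 11 tested Eif3 genes 2 fell and none rose, with a median log2 fold change of -0.14. Eif3d, the subunit that can itself bind the cap of some mRNAs, measured 11.92 and 12.05 in the wild type pools and 11.60 and 11.47 in the K5-IKKbeta pools (-0.45, SE 0.11, adjusted p = 0.021). Eif3i measured 12.63 and 12.64, then 12.27 and 12.18 (-0.41, SE 0.09, adjusted p = 0.020), and its second probe set gave the same value of -0.41. The second probe set of Eif3d, the dimmer 1446997_at, had a value of -0.16 (adjusted p = 0.46 over all probe sets), and the mean of both did not pass (-0.31, adjusted p = 0.068).

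Leaving out wild type 1 ended both calls (Eif3d at -0.52 with adjusted p = 0.074, Eif3i at -0.41 with adjusted p = 0.12), and so did leaving out wild type 2 (Eif3d at -0.38 with adjusted p = 0.15, Eif3i at -0.41 with adjusted p = 0.12). Over the alternatives adjusted p ran from 0.0084 to 0.24 and from 0.0069 to 0.30. The subunits short of the threshold ran from Eif3m at -0.30 (adjusted p = 0.067) and Eif3b at -0.29 (adjusted p = 0.11) to Eif3f at 0.09 (adjusted p = 0.54). Eif3f was also the brightest of the group, with 12.67 and 12.79 in the wild type pools and 12.82 and 12.81 in the K5-IKKbeta pools. Eif3a, the core scaffold, had a value of -0.07 with a 95% interval of -0.31 to 0.17, and Eif3c, its partner in the core, -0.10 with an interval of -0.37 to 0.18. Both values are those of the brightest probe set, and the other probe sets of these genes differed from them. Of the 3 others of Eif3a, 1416661_at was called lower over all probe sets (-0.58, adjusted p = 0.036), while 1416659_at and 1416660_at had values of -0.20 and -0.19, and the mean of all 4 was -0.26 (adjusted p = 0.10). Of those of Eif3c, 1415859_at had a value of -0.37 (adjusted p = 0.089), and 1415858_at and 1456083_x_at had -0.01 and 0.09.

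With another quantile normalization 4 Eif3 genes were lower, beside 1780 of all 13070 tested genes. With hair genes left out before it, a setting chosen after seeing the data, 5 were, beside 1818 of 13026. No Eif3 gene was called without wild type 1 or without wild type 2.

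The factors that act at and after start codon recognition were lower in part. Eif5, the GTPase activator of eIF2, measured 12.14 and 12.21 in the wild type pools and 11.68 and 11.65 in the K5-IKKbeta pools (-0.51, SE 0.09, adjusted p = 0.0084). Eif5b, the GTPase of subunit joining, measured 9.88 and 9.94, then 9.45 and 9.42 (-0.48, SE 0.09, adjusted p = 0.011). For both genes the 2 pools of each genotype lay close together, with the K5-IKKbeta pools below.

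The brightest member of the whole family was Eif5a, which helps the ribosome past difficult peptide bonds and carries the modified lysine hypusine. It measured 13.92 and 13.95, then 13.77 and 13.89 (-0.11, 95% interval -0.35 to 0.13, adjusted p = 0.44). Its paralogue Eif5a2 measured 6.99 and 7.01, then 7.19 and 7.25 (0.22, adjusted p = 0.12). Neither the Eif5 nor the Eif5b call held when wild type 1 was left out (Eif5 at -0.55 with adjusted p = 0.054, Eif5b at -0.51 with adjusted p = 0.067) or when wild type 2 was (-0.48 with adjusted p = 0.078 and -0.45 with adjusted p = 0.092). Over the alternatives adjusted p ran from 0.0030 to 0.087 and from 0.0057 to 0.13. All 5 probe sets of Eif5 had negative values, -0.62 to -0.20, and 2 passed over all probe sets. Of those of Eif5b, 1434605_at was called lower too (-0.55, adjusted p = 0.026), and the dim 1435592_at had a value of -0.03.

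**Figure D3:**
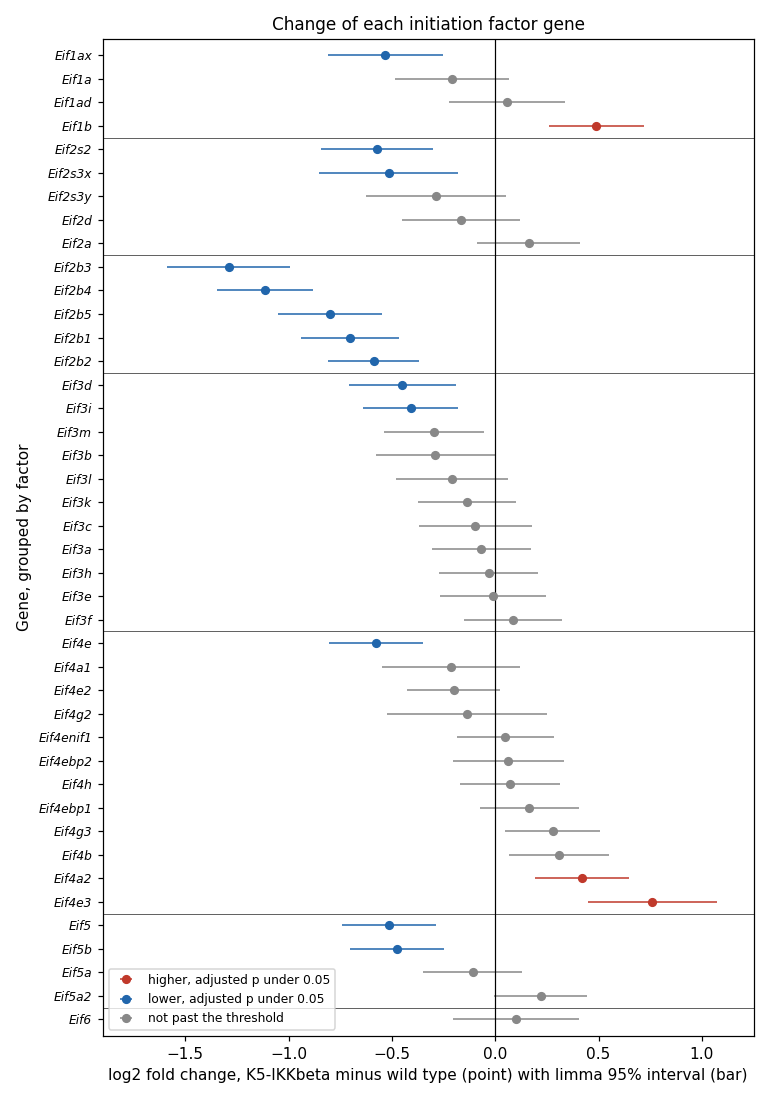
Log2 fold change of each tested initiation factor gene (horizontal axis; points) with its 95% interval from limma (bars), grouped by factor. Blue and red mark genes past the threshold of 0.05. The 5 Eif2b genes lie furthest to the left, and Eif4e3, at 0.76, furthest to the right.

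In the cap-binding group the paralogues moved in different directions. Eif4e, the cap-binding protein, measured 11.25 and 11.30 in the wild type pools and 10.68 and 10.72 in the K5-IKKbeta pools, a 1.49-fold fall (-0.58, SE 0.09, adjusted p = 0.0055). Eif4e3, another cap-binding member of the family, measured 8.50 and 8.48, then 9.41 and 9.10, a 1.69-fold rise (0.76, SE 0.13, adjusted p = 0.0065). The second probe set of Eif4e3, 1417978_at, rose too (adjusted p = 0.0025 over all probe sets). Eif4e2, which binds caps without eIF4G and represses translation, had a value of -0.20 (adjusted p = 0.15). That was the lowest of its 5 probe sets, and 1455108_at had a value of 0.35 (adjusted p = 0.072 over all probe sets).

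Neither the Eif4e nor the Eif4e3 call held without wild type 2 (-0.55, adjusted p = 0.056, and 0.75, adjusted p = 0.052). Over the alternatives adjusted p ran from 0.0021 to 0.067 and from 0.00061 to 0.14. Of 4 Eif4e probe sets all had negative values, -1.52 to -0.01; the largest fall was in the dimmer 1444010_at.

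The helicase eIF4A, which unwinds the mRNA ahead of the ribosome, has a pair of closely related genes. Eif4a2 measured 11.91 and 11.95 in the wild type pools and 12.37 and 12.33 in the K5-IKKbeta pools, a 1.34-fold rise (0.42, SE 0.09, adjusted p = 0.017). Eif4a1 measured 12.88 and 13.13, then 12.67 and 12.92, with overlapping pools (-0.21, 95% interval -0.55 to 0.12, adjusted p = 0.28). Eif4a2 was not called when wild type 1 was left out (0.40 with adjusted p = 0.12) or when wild type 2 was (0.44 with adjusted p = 0.095). Nor was it called after a quantile normalization that left hair genes out (0.30 with adjusted p = 0.051). Over the alternatives its adjusted p ran from 0.0063 to 0.26.

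Genes of related function were compared within arrays for 3 pairs picked after their values were seen. The change of Eif4e3 exceeded that of Eif4e by 1.34 on the log2 scale, that of Eif1b exceeded that of Eif1ax by 1.02, and that of Eif4a2 exceeded that of Eif4a1 by 0.63. For each pair the differences of the K5-IKKbeta arrays lay above those of the wild type arrays. An exact two-sided permutation test of 2 arrays against 2 gives p = 0.333 for each, the smallest it can give, so these differences cannot pass a threshold by it.

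The scaffolds and helpers of eIF4F did not pass. Eif4g2, which lacks the eIF4E-binding site of the other scaffolds, was the brightest Eif4 gene, with 13.37 and 13.36 in the wild type pools and 13.01 and 13.46 in the K5-IKKbeta pools (-0.14, adjusted p = 0.56). Its K5-IKKbeta pools differed by 0.45, the widest difference within a genotype of any member, and without K5-IKKbeta 2 it was called lower (-0.36, adjusted p = 0.049). Eif4g3, a scaffold, and Eif4b, a cofactor of the helicase, had values of 0.28 (adjusted p = 0.068) and 0.31 (adjusted p = 0.057). For both there was no overlap between the genotypes, as for 69.5% of all tested genes. The dimmer 1446145_at of Eif4g3 had a value of -0.15 (adjusted p = 0.63 over all probe sets), while all 3 probe sets of Eif4b had positive values. Eif4h, a smaller cofactor, had a value of 0.07 (adjusted p = 0.63).

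The repressors of eIF4E did not pass. Eif4ebp1, which is released from eIF4E when mTOR phosphorylates it, measured 10.23 and 10.35 in the wild type pools and 10.43 and 10.47 in the K5-IKKbeta pools (0.16, 95% interval -0.07 to 0.40, adjusted p = 0.25). Eif4ebp2 had a value of 0.06 (adjusted p = 0.70) and Eif4enif1, which carries eIF4E into the nucleus, 0.05 (adjusted p = 0.73). Eif6, which keeps the large subunit from joining too early, measured 11.02 and 11.16, then 11.32 and 11.06, with overlapping pools (0.10, adjusted p = 0.59). Its dimmer probe set 1431582_at had a value of -0.31 (adjusted p = 0.12 over all probe sets).

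The other probe sets of the members were read in the same way. Of 120 probe sets of the members 102 were above the filter, and over all probe sets 22 were lower and 4 higher. All of these calls were of probe sets above the filter. Among all 45101 probe sets, dim ones included, 16.3% were called, 5.88% lower and 10.4% higher. Shares among all probe sets above the filter were not computed. The counts of members and these shares are thus not matched for brightness, and the size of the difference between them cannot be read from them. In none of 28 genes with at least 2 probe sets above the filter did calls go in both directions. Only genes with at least 2 called probe sets could have shown that, and most of the 28 had fewer. Without regard to calls, some genes had probe sets of both signs, among them Eif4e2 (-0.20 to 0.35) and Eif2a (-0.43 to 0.16).

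Pools of a genotype were also compared. The median absolute difference between pools was 0.09 for wild type and 0.10 for K5-IKKbeta skin, against 0.11 and 0.13 over all tested genes. Wild type pool 1 lay above wild type pool 2 in 5 of the 42 members, with a median difference of -0.08, and K5-IKKbeta pool 1 above pool 2 in 18.

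Genes around initiation were taken from lists that held 24 regulators, 20 mTOR pathway genes, 12 elongation and termination factors, 20 tRNA synthetases and 18 targets of the stress response that follows eIF2 phosphorylation. Among all tested genes 23.4% were higher and 10.6% lower, shares to set beside the counts of each list below. Among 23 tested regulators 3 rose and 3 fell (median 0.01), so they were called no more often than all tested genes (33.9%). Of the kinases of eIF2, Eif2ak2, which senses double-stranded RNA, measured 7.02 and 7.21 in the wild type pools and 8.05 and 7.94 in the K5-IKKbeta pools (0.88, SE 0.11, adjusted p = 0.0022). Eif2ak3, which senses stress of the endoplasmic reticulum, measured 9.02 and 8.99, then 9.44 and 9.77 (0.60, SE 0.13, adjusted p = 0.017). The kinases Eif2ak1 and Eif2ak4 had values of 0.03 (adjusted p = 0.83) and -0.21 (adjusted p = 0.24).

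Ppp1r15a, the stress-induced subunit of the phosphatase that removes the phosphate from eIF2, measured 9.88 and 9.73 in the wild type pools and 8.92 and 8.74 in the K5-IKKbeta pools (-0.98, SE 0.11, adjusted p = 0.0016). Its constitutive counterpart Ppp1r15b had a value of 0.17 (adjusted p = 0.33). Mknk1, a kinase that phosphorylates eIF4E, fell by 0.63 on the log2 scale (adjusted p = 0.0044). Phosphorylation of eIF2 itself is not measured by these arrays.

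Targets of the stress response moved in both directions: 7 of 17 tested rose and 3 fell (median 0.11). The largest falls among the tested genes were in Chac1, which breaks down glutathione (-4.47, adjusted p = 3.5e-06), and Cth, which makes cysteine (-2.77, adjusted p = 4.5e-05). Slc7a11, the cystine carrier, lay below the filter by its mean of 5.45 and was not tested; it measured 6.83 and 6.98 in the wild type pools and 3.90 and 4.10 in the K5-IKKbeta pools, a difference of -2.90. The largest rises were in the stress protein Nupr1 (1.87, adjusted p = 0.00012) and the transcription factor Atf3 (0.99, adjusted p = 0.00091). Atf4, whose mRNA is translated when eIF2 is phosphorylated, measured 11.36 and 11.28, then 11.60 and 11.26, and did not pass (0.11, adjusted p = 0.56).

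Of 18 tested tRNA synthetases, which load amino acids onto tRNA, 5 fell and none rose (median -0.30). They were Cars (-0.88, adjusted p = 0.0012), Rars (-0.82, adjusted p = 0.0015), Gars (-0.62, adjusted p = 0.012), Yars (-0.52, adjusted p = 0.011) and Lars (-0.41, adjusted p = 0.042). Of 10 tested elongation and termination factors 1 rose and none fell (median -0.07). It was Eef1a2, the elongation factor of muscle and nerve (1.10, adjusted p = 0.0012), beside the rise of 7 of 8 muscle markers given above, whose part was not tested; the common form Eef1a1 had a value of -0.04 (adjusted p = 0.78).

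The mTOR pathway list had 2 higher and 2 lower of 18 tested (median 0.13), no larger a share than among all tested genes (33.9%). Rragd, a GTPase that reports amino acids to mTOR, rose by 0.86 (adjusted p = 0.0023), and the kinase Akt1 by 0.43 (adjusted p = 0.016). Rps6kb2, a kinase of ribosomal protein S6, had a value of -0.64 (adjusted p = 0.0054), and Rps6, the gene of that protein, -0.70 (adjusted p = 0.030). Mtor itself had a value of 0.04 (adjusted p = 0.79).

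**Figure D4:**
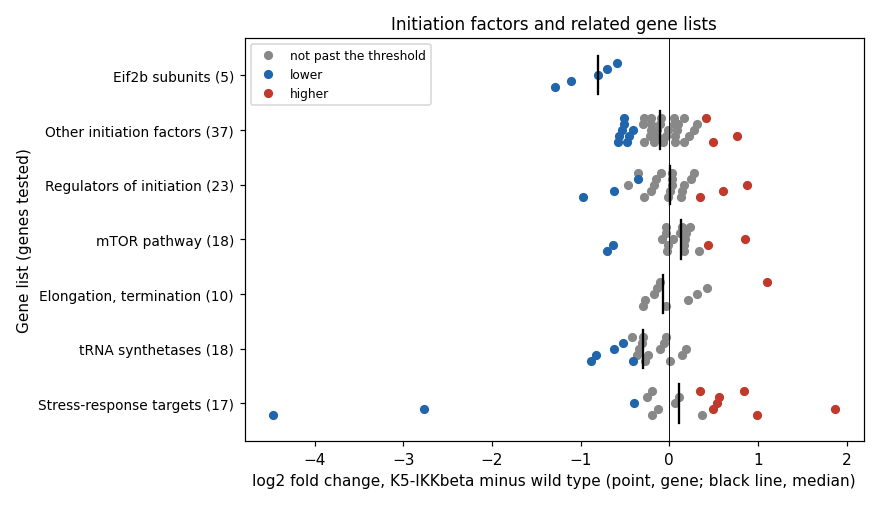
Log2 fold changes (horizontal axis) of the tested genes of each list: the Eif2b genes, the 37 other initiation factors, and the lists of related genes. Points are genes, red higher and blue lower past the threshold, and black lines are medians. The median is -0.80 for the Eif2b genes, -0.11 for the other initiation factors and -0.30 for tRNA synthetases; the height of a point within its row has no meaning.

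Promoter windows of 300 bases, 250 before to 50 after the start, were found in the RefSeq table for 34 of the 43 members, with 46 windows in all. On both strands, the E-box CACGTG was in 11 of the 46 windows (23.9%) and in 7.15% of all 32851 windows. By gene, it was in 1 of 11 members that fell and in 7 of 20 that did not pass. The letters CCGGAAG, a binding motif of ETS factors, were in 17 windows of members (37.0%, against 8.86% of all), and in 2 of the 4 Eif2b genes. CCAAT was in 12 windows (26.1%, against 37.4% of all), and by gene in 12 of the 34 members (35.3%). Some members had several windows, with 6 for Eif5a. TGATGNAA, which resembles an element bound by ATF4, was in 1 window, that of Eif2s3x (2.17%, against 3.97% of all). The NF-kB consensus was in 0 of the 46 windows and in 8.46% of all; that says only that these letters are not in these windows.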

How the data were processed

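Expression was measured on 4 arrays, 2 per genotype. The authors deposited RMA expression values per probe set, per the submitters' processing notes; no RMA version is named. RMA subtracts background, equalizes array distributions and combines the probes of a probe set. The log base is not stated, and the deposited values were taken as log2 from their range. The authors' genome build and annotation are not given, and detection calls and scanner files were not used here. Of 45101 probe sets 34958 had 1 symbol in the platform annotation, 932 several and 9211 none. Those with 1 symbol were used, and all 43 members matched the GRCm38.p6 gene table.

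Each gene was represented by its brightest probe set by the 4-array mean, and tested if that mean exceeded 6.33, the 40th percentile of probe sets. Groups were compared in R 4.3.3 by the lmFit and eBayes functions of limma 3.58.1 (two-sided), adjusted over 13074 genes. Nothing says that pools came from separate litters, so p-values measure only the spread between pools. Intervals are limma's. RMA compresses large changes. The members and lists were chosen with earlier results of these data known, so no p-value over them alone is given. Named genes were members past the threshold, the brightest and most changed member of each factor, and up to 4 per related list past the threshold with the largest change; others were named after their values were seen. On simulated data for 13074 genes, calls were made for 3 of 67 genes changed 1.5-fold and for 49 of 67 at 2-fold. At 4-fold they were made for 66 of 66, with 2 false calls in all. The simulation had 120 calls, whereas 4436 of 13074 genes were called in the data. Benjamini-Hochberg is stricter where fewer genes change, so these shares do not give the detection rate in the data. Alternatives changed the filter, probe sets, normalization, moderation, minimum effect, replicate block and arrays.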

Additional observations from a re-analysis of the deposited data

How the results depend on the processing

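Against 13 lower and 3 higher members, eBayes with trend and robust settings gave 5 higher, beside 3213 higher of all 13074 tested genes. No moderation across genes gave 1 lower and 0 higher (19 members had an unadjusted p under 0.05). A test against a 1.2-fold change gave 6 lower and 1 higher. Calls became fewer over all 13074 tested genes as well. No moderation left 54 lower and 80 higher genes, and the 1.2-fold test 740 and 1608, against 1380 and 3056 in the main setting. Calls over all tested genes were also fewer when either wild type array was left out. The fits that left out an array all had the same number of arrays, and the lone array is assumed to vary like the others. Calls changed less without a K5-IKKbeta array than without a wild type array, and the cause was not tested. The members' median was -0.20 and -0.09 without wild type 1 and 2, and -0.11 and -0.21 without K5-IKKbeta 1 and 2. Over all tested genes the median was 0.07, 0.11, 0.09 and 0.09. Over the other alternatives 11 to 16 members were lower and 2 to 4 higher. Among all tested genes, whose number varied, 1219 to 1818 were lower and 2496 to 3088 higher. No changed member reversed its direction under any of the 15 alternatives. Over single members 567 results stayed on their side of the threshold, 47 lost their call and 13 gained one. All 5 Eif2b genes were called lower in each alternative apart from no moderation, where 1 was. Another quantile normalization moved the median log2 fold change of all genes from 0.09 to 0.02 and that of the members from -0.15 to -0.19.

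The replicate block, with the replicate number of the labels as the block, gave 13 lower and 3 higher, the same genes. Deviations of arrays with the same number correlated at 0.25 over 13074 genes, and with 2 pairs this does not show that the numbers pair the pools.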

Other observations

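Some probe sets listed an Eif symbol beside others and named no member. Over all probe sets, 3 whose annotation lists both copies of the gene of eIF3 subunit j were lower in K5-IKKbeta skin (limma): 1426394_at went from 11.10 and 11.11 to 10.35 and 10.41 (-0.72, adjusted p = 0.0059), 1452052_s_at from 11.47 and 11.52 to 10.84 and 10.86 (-0.64, adjusted p = 0.0091), and 1426395_s_at from 9.24 and 9.32 to 8.58 and 8.67 (-0.66, adjusted p = 0.0096). Each value is larger than that of any Eif3 member, and which copy the probe sets read cannot be told apart. The probe set 1417242_at, listed for Eif4a3 and a predicted gene, was bright, with a mean of 10.94, and had a value of 0.03 (adjusted p = 0.92).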
